A study of Mus musculus with 6 samples.

Results

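The leucocyte miRNAs miR-223, miR-142-3p, miR-142-5p, miR-150, miR-155, miR-146a and miR-146b were profiled in mouse livers with Wnt/β-catenin dependent hepatocarcinoma (HCC). They are the 7 probes named mmu-miR-223, mmu-miR-142-3p, mmu-miR-142-5p, mmu-miR-150, mmu-miR-155, mmu-miR-146a and mmu-miR-146b, of 566 for mouse miRNAs on the NanoString panel, and were chosen by name with no measured value in the rule. The assay hybridises every miRNA to a barcoded probe and counts single molecules with no amplification step. RNA came from fresh frozen livers of 3 *Apcfl/fl* mice, which are homozygous for a hypomorphic *Apc* allele and are labelled HCC, and from 3 *Apc+/+* mice without tumour, the controls. All 6 mice were on the C57Bl/6 background. Age is not given in the sources used here, no Cre driver is named for these mice, and whether tumour was separated from the liver around it is not stated.

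Leucocytes reach the liver with the blood and also live there as Kupffer cells and resident lymphocytes, and their RNA is counted along with that of the hepatocytes when a piece of liver is extracted. MiR-223 is made in neutrophils, monocytes and their precursors, where it restrains granulocyte maturation and activation. Both arms of miR-142 come from a single hairpin transcribed in nearly all blood cells, and miR-150 is abundant in resting mature lymphocytes, where it limits c-Myb. MiR-155 is cut from the transcript of *Mir155hg* (Bic) and is induced when macrophages and lymphocytes are activated. MiR-146a and miR-146b are products of separate genes that are induced through NF-κB or cytokine signalling and dampen the signalling proteins IRAK1 and TRAF6.

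The mature sequences are shown because the seed, bases 2 to 8 in capitals, decides which of the members can share targets. RefSeq sequences of GRCm38.p6 were found for 6 of the 7 members. The names miR-223, miR-155, miR-146a and miR-146b, deposited without an arm, were read as the arm that the same name first described.
miR-223 (miR-223-3p, *Mir223*, chrX:96242884-96242905, plus strand): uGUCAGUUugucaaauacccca
miR-142-3p (*Mir142*, chr11:87756903-87756925, plus strand): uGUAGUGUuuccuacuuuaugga
miR-142-5p (*Mir142*, chr11:87756867-87756887, plus strand): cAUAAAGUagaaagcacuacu
miR-155 (miR-155-5p, *Mir155*, chr16:84714143-84714165, plus strand): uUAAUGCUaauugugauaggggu
miR-146a (miR-146a-5p, *Mir146*, chr11:43374435-43374456, minus strand): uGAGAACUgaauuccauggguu
miR-146b (miR-146b-5p, *Mir146b*, chr19:46342790-46342811, plus strand): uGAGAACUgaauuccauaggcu

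MiR-146a and miR-146b share their seed and 20 of their 22 bases, and differ by G18A and U21C, counted from the 5′ end of miR-146a. Whether the probe of one also counts the other was not tested. No other pair among these 6 sequences shares a seed. Both arms of miR-142 lie in a hairpin of 64 bases (chr11:87756864-87756927, plus strand), shown with the -5p arm and then the -3p arm in capitals because the probes of the arms gave very different counts:
*Mir142* hairpin: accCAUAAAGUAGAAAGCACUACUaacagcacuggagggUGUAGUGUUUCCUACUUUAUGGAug

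The total on mouse miRNA probes was 82942 to 133331 counts per liver, and the values were scaled between livers with TMM factors of 0.655 to 1.25. The count of a liver was called above background when it exceeded the mean plus 2 SD of the 33 viral miRNA probes, a limit of 13.1 to 27.8 deposited counts. The 5 hepatocyte miRNAs listed as markers lay above this limit in all 6 livers. Their summed normalized count was 25165 to 40079 in *Apc+/+* and 8439 to 14320 in *Apcfl/fl* liver. Most of this sum was miR-122, at 21193 to 36463 in *Apc+/+* and 6016 to 11334 in *Apcfl/fl* liver (log2 fold change -1.71). The log2 fold changes of miR-192, miR-194, miR-101a and miR-101b were smaller, from -0.80 to -0.39. All 5 of 5 were at a lower fitted level, beside 49.4% of the 174 miRNAs tested. By edgeR's quasi-likelihood test 4 of 5 were lower at an unadjusted p-value under 0.05, beside 10.9%. The part of this difference in the leucocyte values was not tested. In a piece of liver, fewer cells of a type cannot be told apart from less of their RNA per cell.

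Of the 7 leucocyte miRNAs, 4 were above the limit in every liver (miR-223, miR-142-3p, miR-150 and miR-146a), as were 109 of all 566 mouse probes. In *Apc+/+* livers 1 to 3 the limit was exceeded by 4, 4 and 5 members, and in *Apcfl/fl* livers 1 to 3 by 4, 6 and 6. In normalized counts the limit was 17.6 to 28.6 in the *Apc+/+* livers, but 13.9 and 12.6 in *Apcfl/fl* livers 2 and 3. MiR-155, at 83.0 and 38.3 in *Apcfl/fl* livers 2 and 3, exceeded the limits of all livers, and miR-146b in *Apcfl/fl* liver 3 did not. The numbers of members above the limit therefore do not compare the genotypes. Together the 7 members took 0.246%, 0.45% and 0.229% of the mouse miRNA counts in *Apc+/+* livers 1 to 3 and 0.426%, 0.519% and 1.05% in *Apcfl/fl* livers 1 to 3. The share was highest in *Apcfl/fl* liver 3, and *Apcfl/fl* liver 1 lay below *Apc+/+* liver 2. Such a share also varies with abundant probes, as miR-720 alone took 33.0% of the counts of *Apc+/+* liver 3 and 15.7% of those of *Apcfl/fl* liver 3. In normalized counts the members summed to 375 in *Apc+/+* liver 3 and 369 in *Apcfl/fl* liver 1, the reverse of their order by share.

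**Figure D1:**
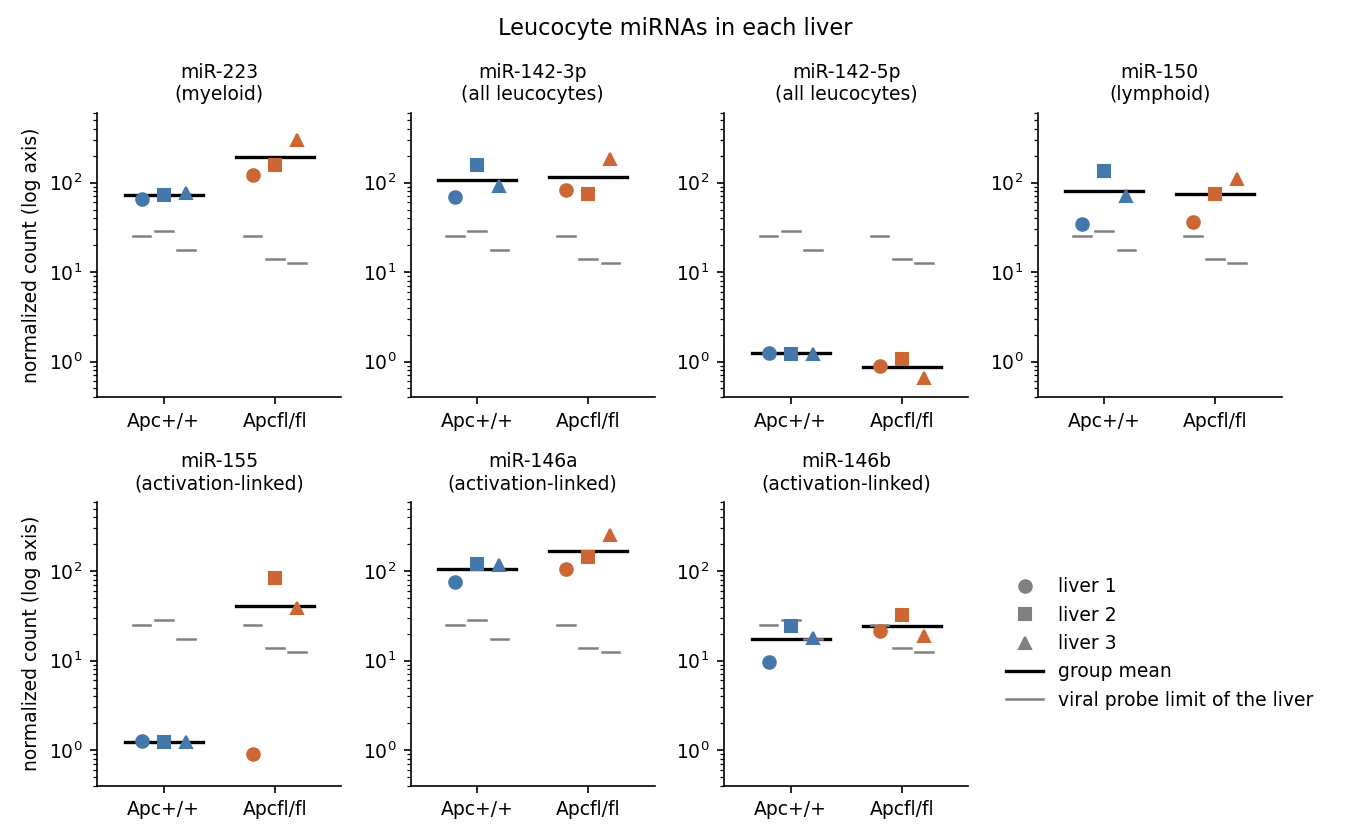
Normalized counts (log axis) of the 7 leucocyte miRNAs in each liver, with the group mean as a black bar and the viral probe limit of each liver as a grey tick. The 3 *Apcfl/fl* livers lie above the 3 *Apc+/+* livers for miR-223, miR-142-5p lies at the lowest deposited value throughout, and miR-155 is above the limit in *Apcfl/fl* livers 2 and 3.

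MiR-223 was the member whose normalized counts separated the genotypes. Its deposited counts were 52, 60 and 62 among the controls and 135, 147 and 459 among the *Apcfl/fl* livers, each over its viral probe limit. After normalization they were 65.6, 73.7 and 76.2 against 121, 156 and 301. The *Apc+/+* livers lay close together and every *Apcfl/fl* liver was above all of them, with *Apcfl/fl* liver 3 well above the other two. The control mean was 71.8 ± 5.50 (SD, n = 3) and the *Apcfl/fl* mean 193 ± 95.5 (SD, n = 3), a ratio of means of 2.69. The log2 fold change was 1.43 (standard error, SE, 0.39, 95% confidence interval 0.51 to 2.34), with an unadjusted p-value of 0.00776 and an adjusted p-value of 0.0718 in edgeR's quasi-likelihood test, past 0.05 only before adjustment. The two-sided exact permutation test gave p = 0.1, the smallest that 3 livers against 3 allow. Without *Apcfl/fl* replicate 3 the log2 fold change was 0.92 (adjusted p = 0.118). The adjusted p-value was under 0.05 in 4 of 21 alternatives, 0.0108 with DESeq2 and 0.034 with the total count as library size among them. At its highest it was 0.215 by edgeR, without *Apc+/+* replicate 1.

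The adjusted threshold of 0.05 was reached by 0 of the 6 members tested in either direction, as by 0% of the 174 miRNAs tested in each. At an unadjusted p-value under 0.05, 2 members were higher (miR-223 and miR-155), beside 13.8% of the tested miRNAs, and 0 were lower, beside 10.9%. Non-overlapping genotypes were found for 1 of the 6 members, on the higher side, beside 14.9% higher and 18.4% lower among all tested. The fitted level was higher for 5 of the 6, beside 50.6%. The median log2 fold change of the 6 members was 0.57 and that of all 174 tested miRNAs 0.01. MiR-155 had passed the count minimum only through *Apcfl/fl* livers 2 and 3, so the counts and the median over the members are descriptions and support nothing. With DESeq2 the adjusted p-value was under 0.05 for 2 members on the higher side, miR-223 and again miR-155, beside 11.5% of the tested miRNAs, and for 0 on the lower side, beside 5.17%.

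**Figure D2:**
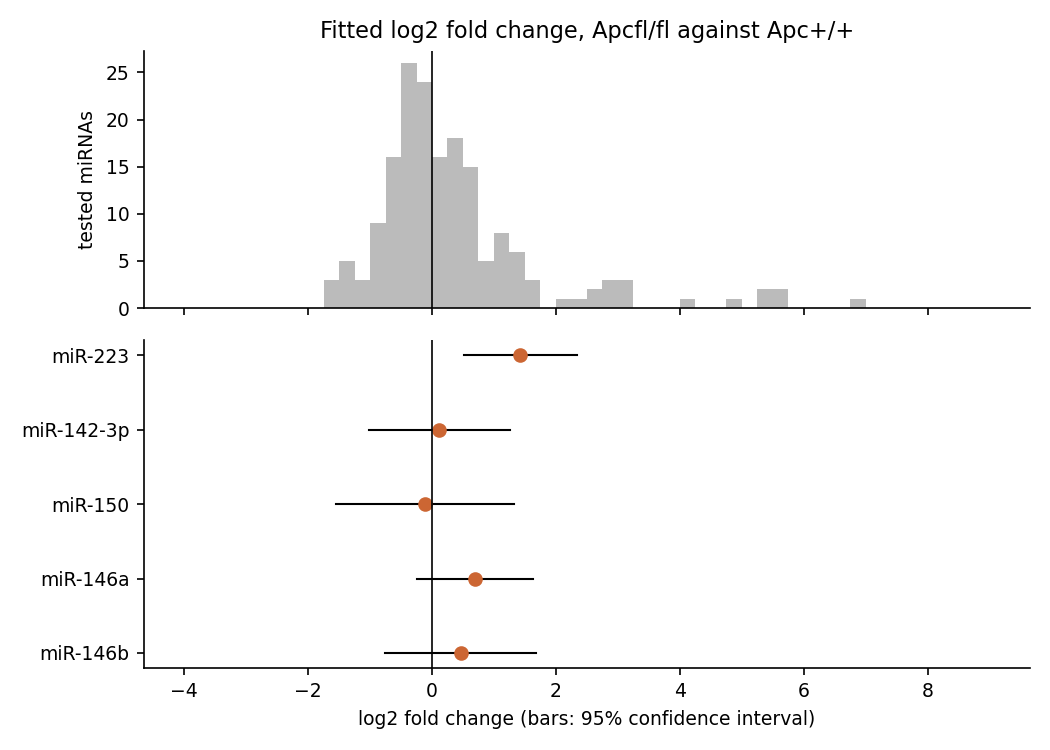
Fitted log2 fold changes of *Apcfl/fl* against *Apc+/+* liver for all 174 tested miRNAs (histogram, top) and for 5 leucocyte miRNAs with 95% intervals (bottom); miR-155 is left out of the lower panel because all its *Apc+/+* values stood at the lowest deposited value. The interval of miR-223 (0.51 to 2.34) lies above 0 and those of miR-142-3p, miR-150, miR-146a and miR-146b span 0.

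MiR-142-3p, found in nearly all leucocytes, did not separate the genotypes. Its deposited counts were 55, 128 and 74 in the controls, against 93, 70 and 283 with *Apcfl/fl*, all above the limit. Normalized, they were 69.4, 157 and 90.9 against 83.7, 74.1 and 186. *Apcfl/fl* livers 1 and 2 lay within the range of the *Apc+/+* livers and liver 3 above it. The control mean was 106 ± 45.7 (SD, n = 3) and the *Apcfl/fl* mean 115 ± 61.9 (SD, n = 3). The log2 fold change was 0.12 (SE 0.48, 95% interval -1.02 to 1.25), with adjusted p = 0.879 by edgeR and p = 0.9 by the two-sided exact permutation test, and the interval held 2-fold differences either way. Without *Apcfl/fl* replicate 3 it was -0.45, and without *Apc+/+* replicate 2 it was 0.63. Without *Apc+/+* replicate 1 it was -0.08, or 0.02 when the same miRNAs were tested.

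The other arm of the hairpin, miR-142-5p, stood at the lowest deposited value of 1 in all 6 livers and was not tested. The decimals of the deposited values show that something had been subtracted probe by probe, and its size for miR-142-5p is not given in the sources used here. At this depth neither the arm nor a difference in it was detectable, and a value of 1 does not show that it was missing.

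MiR-150, the lymphocyte member, overlapped fully between the genotypes. Its deposited counts were 27.33, 110.33 and 57.33 in the controls, against 40.33, 70.33 and 169.33 with *Apcfl/fl*. Normalized, they were 34.5, 135 and 70.4 against 36.3, 74.5 and 111. The highest and the lowest of the 6 values were both *Apc+/+* livers, and the 3 *Apcfl/fl* livers lay between them. The control mean was 80.1 ± 51.2 (SD, n = 3) and the *Apcfl/fl* mean 74.0 ± 37.5 (SD, n = 3), with a log2 fold change of -0.11 (SE 0.61, 95% interval -1.55 to 1.33), adjusted p = 0.902 by edgeR and p = 1 by the two-sided exact permutation test. Between the *Apc+/+* livers alone miR-150 differed 3.93-fold, against 1.16-fold for miR-223. The sign of the fold change was positive without *Apc+/+* replicate 2 (0.59) and without *Apcfl/fl* replicate 1 (0.22), and with the total count for library size (0.30), which moved the median of all tested miRNAs from 0.01 to 0.45.

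Of the activation-linked members, miR-155 was seen in 2 livers. Its deposited count was at the lowest value of 1 in the 3 *Apc+/+* livers and in *Apcfl/fl* liver 1, and was 78.33 and 58.33 in *Apcfl/fl* livers 2 and 3. Normalized, these 2 values were 83.0 and 38.3, beside limits of 17.6 to 28.6 in the *Apc+/+* livers. The genotypes overlapped through *Apcfl/fl* liver 1. The mean of the 3 *Apcfl/fl* livers (40.7) was 1.71 times the mean viral probe limit of the *Apc+/+* livers (23.8). If the *Apc+/+* level of miR-155 lay at or under that limit, 1.71-fold is the least difference of the means. Without *Apcfl/fl* liver 2 the mean of 19.6 was under that limit and gave no fold. Because all controls stood at the lowest value, no fitted fold change is given here, and the fitted values listed with the alternatives are no folds. The two-sided exact permutation test over the 6 livers gave p = 0.4.

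MiR-146a, a feedback inhibitor of NF-κB signalling, was above the limit in all livers. It had deposited counts of 60.33, 98.33 and 95.33 in *Apc+/+* and of 116.33, 137.33 and 387.33 in *Apcfl/fl* liver. The normalized counts were 76.1, 121 and 117 against 105, 145 and 254. *Apcfl/fl* liver 1 lay within the *Apc+/+* range and livers 2 and 3 above it. The control mean was 105 ± 24.8 (SD, n = 3) and the *Apcfl/fl* mean 168 ± 77.4 (SD, n = 3), a log2 fold change of 0.69 (SE 0.40, 95% interval -0.25 to 1.62), with adjusted p = 0.330 by edgeR and p = 0.3 by the two-sided exact permutation test, within the spread between livers. Without *Apcfl/fl* replicate 3 it was 0.24.

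MiR-146b lay near the background. Its deposited counts were 7.67, 19.67 and 14.67 in the controls, against 23.67, 30.67 and 28.67 with *Apcfl/fl*, and they exceeded the limit of their own liver in 1 of 3 and 2 of 3. The deposited counts of the genotypes were apart, but the normalized counts overlapped, at 9.68, 24.1 and 18.02 against 21.3, 32.5 and 18.8. At 18.8 *Apcfl/fl* liver 3 was above its normalized limit of 12.6, and at 24.1 *Apc+/+* liver 2 was under its limit of 28.6. The log2 fold change was 0.46 (SE 0.51, 95% interval -0.75 to 1.67), with adjusted p = 0.614 by edgeR and p = 0.4 by the two-sided exact permutation test.

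**Figure D3:**
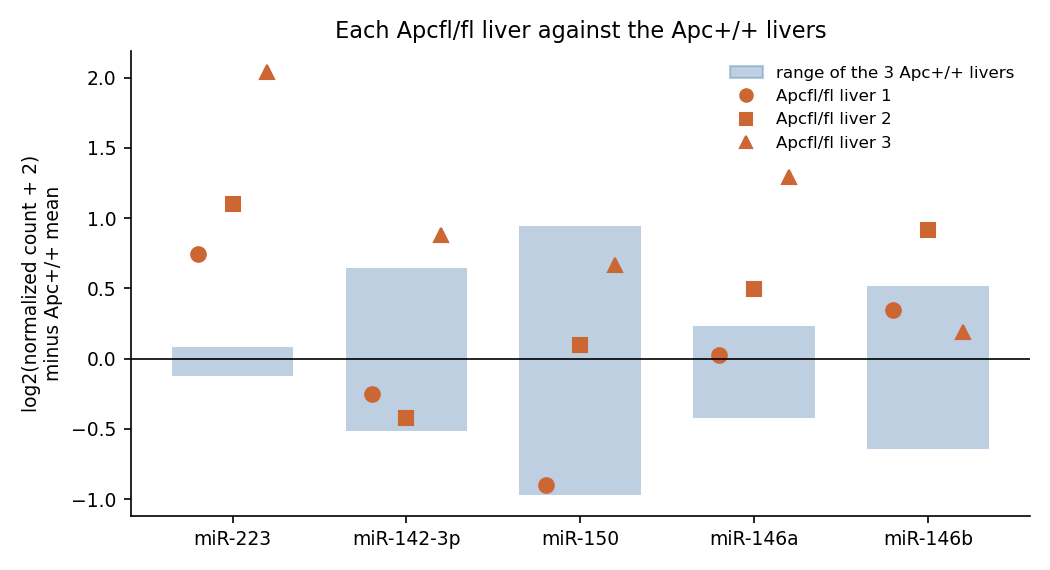
Log2(normalized count + 2) of each *Apcfl/fl* liver minus the mean of the 3 *Apc+/+* livers for 5 leucocyte miRNAs, with the range of the *Apc+/+* livers as a blue box. For miR-223 all 3 *Apcfl/fl* livers lie above the box (0.745, 1.098 and 2.04), and for miR-150 all 3 lie inside it.

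Liver by liver, the members lay at different places against the *Apc+/+* livers. In *Apcfl/fl* liver 1 only miR-223 exceeded every *Apc+/+* liver among the members above background, at 1.68-fold their geometric mean, while miR-150 stood at 0.537-fold, miR-142-3p at 0.841-fold and miR-146a at 1.02-fold. MiR-155 and miR-146b were not above the limit in that liver. In *Apcfl/fl* liver 2 miR-223 was at 2.14-fold, miR-146b at 1.89-fold and miR-146a at 1.41-fold, all above every *Apc+/+* liver, whereas miR-142-3p was at 0.748-fold and miR-150 at 1.07-fold, inside their range. In *Apcfl/fl* liver 3 miR-223 was at 4.12-fold, miR-146a at 2.45-fold and miR-142-3p at 1.84-fold, all above the *Apc+/+* livers, and miR-150 was inside their range at 1.59-fold, as was miR-146b at 1.14-fold. MiR-155, given no fold, was above all *Apc+/+* livers in *Apcfl/fl* livers 2 and 3. These folds are of log2 values with a prior count of 2, each sets 1 *Apcfl/fl* liver against the 3 *Apc+/+* livers, and none was tested. How many of all tested miRNAs exceeded every *Apc+/+* liver in each *Apcfl/fl* liver was not counted, so the places of the members are descriptions.

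Ratios of 2 probes within a liver do not depend on the scaling between livers. The log2 ratio of miR-223 over miR-150, myeloid over lymphoid, was 0.88, -0.86 and 0.11 in the controls, against 1.69, 1.04 and 1.43 with *Apcfl/fl*. The ratio was higher in each *Apcfl/fl* liver than in any *Apc+/+* liver, by 1.34 in the mean, or 2.54-fold. The log2 ratio of miR-223 over miR-142-3p was -0.08, -1.07 and -0.25 in the controls, against 0.53, 1.05 and 0.69 with *Apcfl/fl*, again without overlap, with a difference of 1.22 or 2.33-fold. By contrast, miR-142-3p over miR-150 was 0.96, 0.21 and 0.36 against 1.17, -0.01 and 0.73, which overlapped, with a difference of 0.12 (two-sided exact permutation p = 0.9). For miR-223 over miR-150 and over miR-142-3p the two-sided exact permutation p-value was 0.1, the smallest possible here, and 0.125 after Benjamini-Hochberg adjustment over the 5 ratios given. Without *Apc+/+* replicate 2 the differences were 0.89 for miR-223 over miR-150 and 0.92 for miR-223 over miR-142-3p. Both ratios hold the difference of miR-223 itself (log2 fold change 1.43), beside -0.11 for miR-150 and 0.12 for miR-142-3p. How many other pairs of probes were without overlap was not counted. The level of a ratio carries the efficiencies of its probes, and the difference between the genotypes does not.

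The ratios of both leucocyte miRNAs examined to miR-122, the main miRNA of hepatocytes, were higher in *Apcfl/fl* liver. The log2 ratio of miR-223 over miR-122 was -8.28, -8.71 and -8.86 in the controls, against -5.61, -6.17 and -5.06 with *Apcfl/fl*, a difference of 3.00 or 8.02-fold. For miR-150 it was -9.16, -7.86 and -8.97 against -7.30, -7.21 and -6.49, a difference of 1.66 or 3.16-fold. In neither ratio did the genotypes overlap (two-sided exact permutation p = 0.1, adjusted 0.125). MiR-122 itself was lower in *Apcfl/fl* liver, at 6016 to 11334 normalized counts against 21193 to 36463 in *Apc+/+* liver (log2 fold change -1.71, adjusted p = 0.0559 in edgeR's test), so these ratios hold its difference as well. MiR-150 had a log2 fold change of -0.11, so its ratio to miR-122 was higher without a higher fitted level of miR-150.

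**Figure D4:**
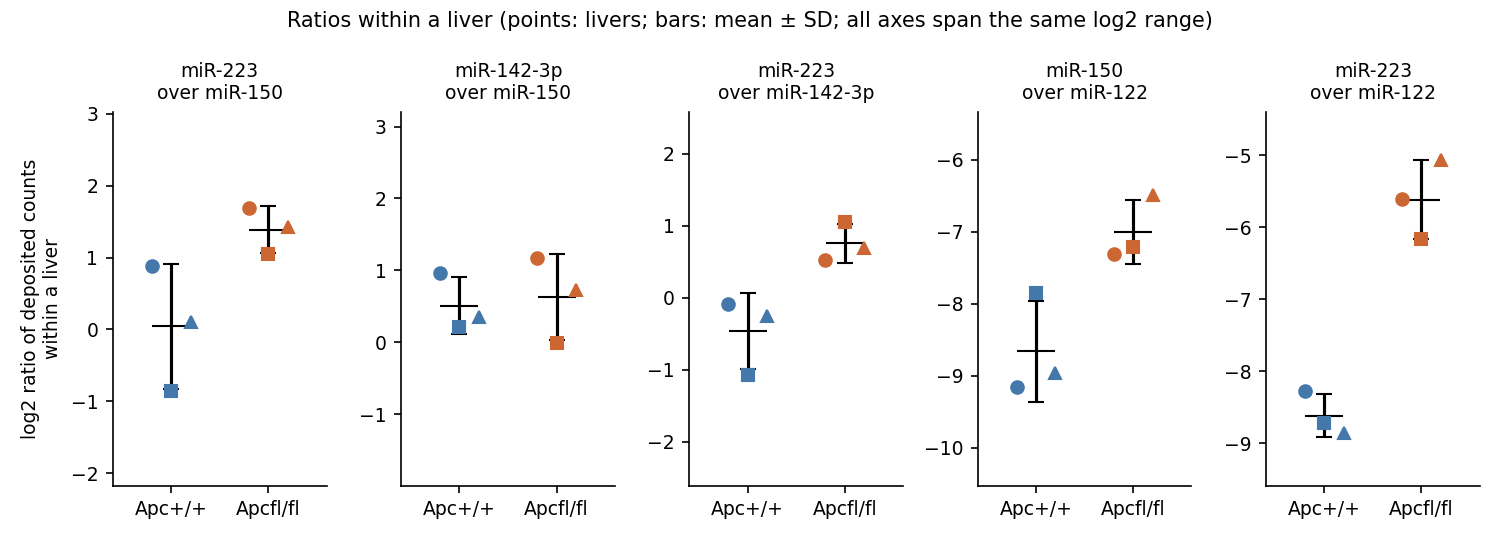
Log2 ratios of deposited counts (prior count 2) of pairs of probes within each liver, with mean ± SD of the 3 livers of each genotype. The genotypes are apart for the ratios with miR-223 and for miR-150 over miR-122, and overlap for miR-142-3p over miR-150.

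The remaining ratios planned, miR-155 over miR-150, miR-146a over miR-146b and miR-142-3p over miR-142-5p, are not given because a probe in each lay at or under the limit in most livers of a genotype.

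Likeness of the members over the 6 livers was described by Pearson's r of the normalized log2 counts against the 173 other tested miRNAs. The nearest 3 are the highest of 173 values over only 6 livers, and such values are high by selection alone. Neither an r nor a difference between r values was tested. All these values share the libraries, their scaling and the split by genotype. MiR-142-3p was most like miR-342-3p (r = 0.944), a miRNA abundant in lymphocytes, then miR-709 (0.896) and miR-150 (0.818). MiR-150 was most like miR-690 (0.886), then miR-142-3p and the probe for miR-106a and miR-17 (0.806). MiR-223 was most like miR-148b (0.961), let-7i (0.959) and miR-15b (0.907), none of them a member, and its r was 0.889 with miR-146a, 0.452 with miR-142-3p and 0.32 with miR-150. MiR-146a was most like miR-223, then miR-690 (0.833) and miR-130a (0.803). For miR-155, with 4 of 6 values at the lowest level, the nearest were miR-222 (0.994), miR-130a (0.929) and let-7b (0.92). MiR-146b, near background, was nearest to miR-1944 (0.875), miR-200a (0.839) and miR-382 (0.822).

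Other miRNAs abundant in lymphocytes did not separate the genotypes either. Of 6 listed on 5 probes (miR-342 arms and the miR-181 family), 2 were tested, both at a higher fitted level, beside 50.6% of all tested. By edgeR's quasi-likelihood test neither had an unadjusted p-value under 0.05, beside 13.8% higher and 10.9% lower among all tested. MiR-342-3p had normalized counts of 40.8, 71.6 and 43.4 in the controls, against 46.2, 34.2 and 132 (log2 fold change 0.46, SE 0.59, adjusted p = 0.673 by edgeR). As with miR-142-3p, *Apcfl/fl* liver 3 was the highest and the genotypes overlapped. MiR-181a, which tunes antigen receptor signalling in lymphocyte precursors, differed by 0.52 on the log2 scale (SE 0.39, adjusted p = 0.424 by edgeR).

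Of 6 other miRNAs listed as responsive to endotoxin, 4 were tested and 0 had an adjusted p-value under 0.05, beside 0% of all tested. MiR-21, which many cell types besides leucocytes make, was at 2685 to 4271 normalized counts in *Apc+/+* and 7833 to 9345 in *Apcfl/fl* liver (log2 fold change 1.31, SE 0.24, adjusted p = 0.0559 by edgeR). MiR-125b-5p, which targets the TNF transcript, was at 934 to 1317 against 506 to 694 (log2 fold change -0.95, SE 0.22, adjusted p = 0.0559 by edgeR). In both the genotypes did not overlap, beside 14.9% higher and 18.4% lower among all tested. Let-7e and miR-132 had log2 fold changes of 0.39 and 0.31 (adjusted p = 0.424 and 0.72), and miR-9 and miR-147 lay under the viral probe limit in all 6 livers.

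Blood cell and stromal markers were set beside the leucocyte members. The summed normalized count of the erythroid miR-144, miR-451 and miR-486 was 856 to 1404 in the *Apc+/+* livers and 796, 4561 and 1199 in *Apcfl/fl* livers 1 to 3. Of these, 3 of 3 were at a higher fitted level, beside 50.6% of all tested. An unadjusted p-value under 0.05 was found for 0, beside 13.8% higher and 10.9% lower among all tested. The 7 leucocyte members summed to 258, 514 and 375 normalized counts in *Apc+/+* livers 1 to 3 and to 369, 566 and 910 in *Apcfl/fl* livers 1 to 3. The erythroid sum was thus highest in *Apcfl/fl* liver 2 and the leucocyte sum in *Apcfl/fl* liver 3, while the leucocyte sum of *Apcfl/fl* liver 1 lay under those of *Apc+/+* livers 2 and 3. In *Apcfl/fl* liver 1 the erythroid sum was below those of all *Apc+/+* livers. MiR-486 alone was not, at 18.6 normalized counts in that liver and 18.5 in *Apc+/+* liver 1. Of 4 mesenchymal miRNAs tested, 4 were at a lower fitted level, beside 49.4% of all tested, and 2 had an unadjusted p-value under 0.05, beside 10.9%. The list summed to 894 to 1318 counts in *Apc+/+* and 322 to 725 in *Apcfl/fl* liver. The endothelial arms of miR-126 summed to 3585 to 3807 and 2764 to 3552. The part of these differences in the values of the leucocyte miRNAs was not tested.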

How the data were processed

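The authors deposited estimated counts per NanoString probe, not scaled between the 6 livers. A probe-specific constant had been taken off (1 decimal part for all values above 1 in 584 of 584 probes with at least 2 such values) and 446 of 3594 values stood at the floor of 1. The software is not given in the sources used here. All value columns belonged to a liver (0 without a sample). Because the values were not whole, they were rounded for the tests. Mouse miRNAs averaging 20 counts or more (174 of 566, 97.3% of the counts) were compared with edgeR 4.0.16 in R 4.3.3 (TMM over the tested miRNAs, quasi-likelihood test, Benjamini-Hochberg adjustment, all 6 livers, no block). Normalized counts are deposited values divided by the effective library size and multiplied by its mean, and log2 values use a prior count of 2. The limit from 33 viral probes replaced negative controls, which were not used here. Single values were compared by exact permutation. The procedure was tested on simulated data.

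Between livers of 1 genotype chi-square divided by its degrees of freedom was 17.2 to 89.1, so none was counted as a duplicate. The miRNAs named were the 7 members, the 3 tested miRNAs most correlated with each tested member, and those of the marker lists on which a result turned. Members, lists, ratios and tests were chosen with earlier results of these data known. Alternatives were DESeq2 1.42.0, limma 3.58.1, other scalings, other count minimums, subtraction of the mean viral probe count, blocking on the replicate number, and leaving out each liver.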

Additional observations from a re-analysis of the deposited data

How the results depend on the processing

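Over the alternatives (21 for most members), miR-223 (log2 fold change 0.92 to 1.90), miR-146a (0.24 to 1.16), miR-146b (0.18 to 1.12) and miR-155 stayed higher in *Apcfl/fl* liver. For miR-223 the adjusted p-value came under 0.05 with DESeq2 (1.42), the total count (1.86), the total count without miR-720 (1.81) and the count minimum of 60 (1.51, 101 miRNAs tested), and without 1 liver the fold change ranged from 0.92 to 1.68. MiR-155 was tested only because of 2 *Apcfl/fl* livers, and its fitted value against controls at the lowest count is no fold. Its adjusted p-value came under 0.05 with DESeq2 (5.01), the total count (5.20) and that total less miR-720 (5.18). It also did so without *Apcfl/fl* replicate 1 (5.47, or 5.46 with the same miRNAs tested), the only *Apcfl/fl* liver at the lowest value. With limma the fitted value was 2.73 (adjusted p = 0.337 by limma). For miR-155 these fitted values and calls are descriptions and support nothing. Without 1 liver its fitted value ranged from 3.88 to 5.46 with the same miRNAs tested. With the count minimum reapplied it ranged from 4.84 to 5.47 over 4 leave-outs, and without *Apcfl/fl* replicate 2 or 3 miR-155 fell under the minimum and gave no value. Members called higher thus numbered 0 at first, 2 with DESeq2 and with either total count, 1 with the count minimum of 60, and 0 to 1 without 1 liver. Among all tested miRNAs 0 were lower and 0 higher, against 9 and 20 with DESeq2, 1 and 16 with the total count, 3 and 18 without miR-720 in the total, 6 and 1 with size factors of the 100 most abundant miRNAs, 6 and 12 with the count minimum of 60, 3 and 1 with limma, 7 and 3 with viral probe subtraction, 0 to 8 and 0 to 11 without 1 liver, and 0 and 0 with no filter.

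MiR-142-3p turned to -0.010 with those size factors and to -0.0062 with viral probe subtraction, and ranged from -0.45 to 0.63 without 1 liver (-0.42 to 0.64 with the same miRNAs tested). MiR-150 turned to 0.30 with the total count, 0.27 with the total count without miR-720 and 0.41 with no filter, and ranged from -0.56 to 0.59 without 1 liver (-0.54 to 0.60 with the same miRNAs tested), positive without *Apc+/+* replicate 2 and without *Apcfl/fl* replicate 1 (0.22 in both ways). The ratio of miR-142-3p over miR-150 ranged from -0.15 to 0.44 without 1 liver, negative without *Apc+/+* replicate 2 or *Apcfl/fl* replicate 1, and the other 4 ratios kept their sign in all 8 alternatives. The causes were not tested. The replicate numbers did not pair the livers (correlations -0.0562, -0.0558 and 0.125). With the replicate number as a block miR-223 was at 1.32 (adjusted p = 0.0861), 0 members were called, and 3 lower and 4 higher miRNAs were called in all. With the limit at the mean plus 3 SD the number of members under it changed in *Apc+/+* liver 3 alone, from 2 to 3. The subtracted constants and the counts near the limit leave differences in miR-142-5p, miR-146b and the *Apc+/+* level of miR-155 unresolved.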
